A study of Mus musculus with 10 samples.

Results

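The transcripts described are those of 9 neuropeptide precursors (Vip, Adcyap1, Cartpt, Gal, Nmb, Sst, Npy, Nppb and Nts) and of Bdnf, which encodes brain-derived neurotrophic factor. They were found by gene symbol in the count tables, where the 10 genes are 10 of 24421 rows, and each symbol occurred once. The counts came from 10 pools of vagal sensory neurons of the mouse, in 5 groups of 2 pools. Trpv1-tdTomato mice carry Cre at the Trpv1 gene and a ROSA26 tdTomato reporter driven by the CAG promoter, so a red neuron expresses or once expressed Trpv1, which encodes the capsaicin receptor. From these mice, pools of 30 red nodose neurons (Trpv1+ nodose), 30 red jugular neurons (Trpv1+ jugular) and 15 unlabelled nodose neurons (Trpv1- nodose) were picked, and 2 mice supplied the cells. In the capsaicin selection, neurons of C57BL/6 mice were tested in a calcium assay. The capsaicin nodose pools held 14 and 15 cells that responded to capsaicin and to α,β-methylene ATP, which activates P2X receptors. The capsaicin jugular pools held 15 and 16 cells that responded to capsaicin and not to α,β-methylene ATP. All ganglia were dissociated with enzymes, and the agonists were applied only in the capsaicin selection. The ages of the mice are not given in the sources used here.

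Neuropeptides are made as precursors, cut by convertases, stored in dense-core vesicles and released on strong activity. Their receptors are mostly G protein-coupled and sit on other neurons, smooth muscle, glands and immune cells. The nodose ganglion derives from the epibranchial placodes and the jugular ganglion from the neural crest. In sensory neurons the best-known peptides are calcitonin gene-related peptide and substance P, and the peptides described here are carried by smaller or overlapping sets of neurons. BDNF is a neurotrophin that sensory neurons also package in dense-core vesicles and that acts through the receptor TrkB.

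A pool of the Trpv1 selection held 148452506 to 167704327 counts and a pool of the capsaicin selection 17666710 to 30810863. Levels are given as CPM, that is counts divided by the size factor of the pool and scaled to a common total, and 3 counts, taken as the detection floor, equal 0.0144 to 0.0191 CPM for the Trpv1 pools and 0.146 to 0.217 CPM for the capsaicin pools. The second capsaicin nodose pool stood apart. Its size factor was 0.448 of what its total would give, its 10 most abundant genes held 22.6% of its counts and 7889 genes had a count. Selection, sequencing core, mouse strain and depth go together and cannot be told apart. The labelled ganglia were checked against the nodose markers P2rx2 and Hoxb5 and against 5 crest markers, including Prdm12, Tac1, Gfra3 and Mrgprd. Cells of the capsaicin selection were chosen by their response to α,β-methylene ATP, so P2rx2 is not an independent check there. The paper reported P2rx2, Hoxb5, Prdm12, Tac1 and Gfra3 as differing between the ganglia in these same libraries, so they are not independent either. P2rx2 was at 76.1 to 679 CPM in the nodose pools and 0.0650 to 0.292 CPM in the jugular pools, and Hoxb5 at 289 to 517 CPM and 0 to 0.243 CPM. The summed crest markers were 1132 to 1884 CPM in the jugular groups and 6.57 to 100.1 CPM in the nodose groups. Of that sum, Tac1 gave 1065 and 830 CPM in the Trpv1+ jugular and 1338 and 308 CPM in the capsaicin jugular pools. Tac1 is also among the results below, so there the check and the result are the same gene. Trpv1 itself was 146 to 250.5 CPM in Trpv1+ nodose, 264.1 to 307.3 CPM in capsaicin nodose and 87.4 to 276 CPM in capsaicin jugular pools. It was lower in the Trpv1+ jugular pools, at 22.1 to 31.95 CPM, so the Trpv1+ nodose and jugular pools also differ in Trpv1. The Trpv1- nodose pools had 0.0413 and 0.0431 CPM. Summed over 10 markers of satellite glia and Schwann cells, levels were 3407 to 4691 CPM in the Trpv1 pools and 707 to 1699 CPM after capsaicin selection. In each group 5 to 7 of the 10 were at 10 CPM or more in both pools. Sox10 was not among the high ones, at 0 to 0.219 CPM in every pool except the Trpv1- nodose pools (12.6 and 2.78 CPM). The part of these cells in the results below was not tested.

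Promoter sequences were read from RefSeq (GRCm38.p6) for all 10 genes, as windows from 250 bases before to 50 bases after each annotated start, 17 windows in all. The cyclic AMP response element TGACGTCA, which reads the same on both strands, was searched because promoters of several neuropeptide genes are known to hold it. It was found for Cartpt and Sst, which is 20% of the 10 genes against 2.03% of the 27025 genes in the table. By window the share was 11.8% of the 17 against 1.79% of 32851. Because the element was chosen for its known place in such genes, a higher share was expected beforehand and is not read as a result. The first 6 letters of the element, TGACGT, are contained in it and were added after the full element had been searched. They were found on either strand for 5 of the 10 genes (50%) against 8.37% of all genes. By window the share was 35.3% against 7.51%. The 30 bases around each match are printed 5′ to 3′ on the strand of the gene, with the match in capitals. They are shown because Cartpt and Sst share the element and Vip and Adcyap1 the shorter letters. A link between the letters and the levels of these genes was not tested.
Vip: gatcactactgTGACGTctttcggggagcc
Adcyap1: gactaggatgcTGACGTcttttactgatac
Cartpt: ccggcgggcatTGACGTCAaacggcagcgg
Sst: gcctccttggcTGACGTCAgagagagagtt
Bdnf: tatgacagctcACGTCAaggcagcgtggag

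The Vip stretch lies at chr10:5639128-5639157 (plus strand) and its capitals begin 79 bases before the start. The Adcyap1 stretch lies at chr17:93198915-93198944 (plus strand), 91 bases before the start. The Cartpt stretch at chr13:99900777-99900806 and the Sst stretch at chr16:23890874-23890903 are on the minus strand, 112 and 48 bases before the RefSeq starts. GENCODE vM21 places the first base of Cartpt (99901091) and of Sst (23890958) further upstream, so both stretches fall within the span of those longer gene models. The Bdnf stretch at chr2:109692389-109692418 (plus strand) belongs to 1 of the 7 annotated starts of Bdnf and holds the 6 letters on the opposite strand. A match of letters is a description and not evidence of binding.

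Vip, the precursor of vasoactive intestinal peptide (GENCODE vM21, GRCm38, chromosome 10, 5639218 to 5647617, plus strand), was a transcript of the selected nodose neurons. The Trpv1+ nodose pools held 17388 and 20602 counts of Vip, or 111 and 125 CPM. The capsaicin nodose pools held 3320 and 8033 counts, or 171 and 582 CPM. In the other 6 pools Vip had between 0 and 5 counts.

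In each jugular or Trpv1- pool Vip was therefore close to the detection floor, at 0.0107 and 0.0250 CPM in Trpv1+ jugular, 0.146 and 0.258 CPM in capsaicin jugular, and 0.0239 and 0 CPM in Trpv1- nodose. The lowest selected nodose pool was far above the highest of these 6 pools, and the groups did not overlap. Over the pooled counts the ratio of Trpv1+ nodose to Trpv1+ jugular was 6540 (95% interval 3170 to 16300). The corresponding ratio was 1710 (867 to 3960) in the capsaicin selection and 9510 (4080 to 29300) for Trpv1+ over Trpv1- nodose. These intervals are exact and cover counting error only, as do the floors. PCR reads without molecular identifiers are not independent molecules, so the spread between pools is wider.

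Differences between groups were tested with the quasi-likelihood test of edgeR, with Benjamini-Hochberg adjustment over all genes tested. Calls required a fold of 2 or more, 10 CPM or more in both pools of a group, and an adjusted p no higher than 0.1. Vip was called higher in Trpv1+ nodose than in Trpv1+ jugular neurons, with a log2 fold change of 12.62 ± 1.46 (SE, n = 2 and 2 pools, edgeR adjusted p = 0.0946). Across all genes tested in this comparison 0.318% were called (0.182% toward nodose), and 2 of the 7 members tested, Vip and Cartpt, were among them. Without any 1 of the 4 pools edgeR called no gene at all (0%), these included, and the log2 fold changes ranged from 12.14 to 13.32 for Vip and from 4.08 to 4.70 for Cartpt. In the capsaicin selection the log2 fold change of Vip was 10.37 ± 1.51 with an edgeR adjusted p of 0.299, and no gene of 8181 was called (0%), although 1150 had an unadjusted p under 0.05 and DESeq2 called 800 (7.39%), Vip included. Without the first capsaicin nodose pool the edgeR adjusted p of Vip was 0.0905 (10.93), but that fit compares 1 nodose pool, the one that stood apart, with 2 jugular pools, and the lone pool is assumed to vary like the jugular pair. With both selections in a single fit, Vip was called higher in nodose neurons (log2 fold change 11.55 ± 1.29, n = 4 and 4 pools, edgeR adjusted p = 0.00206). In that fit 0.577% of the 11959 genes tested were called (0.268% of those tested toward nodose), and Vip was the only member called. The median log2 fold change over all genes in that fit was -0.18, and in the other comparisons it lay between -0.02 and 0.03.

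Within the nodose ganglion, the Trpv1+ and Trpv1- pools differed in Vip by a log2 fold change of 13.18 ± 2.14 (edgeR adjusted p = 0.366, n = 2 and 2). In this comparison edgeR called 0.0527% of 11386 genes and none of the 7 members tested, with 1264 genes and 5 members at an unadjusted p under 0.05, while DESeq2 called 2.63% of genes, Vip and Sst among them. The Trpv1+ nodose pools are the same in this comparison and in that against the jugular ganglion. In pooled cells, a smaller number of expressing cells and a lower level per cell cannot be told apart, which holds for each gene described.

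**Figure D1:**
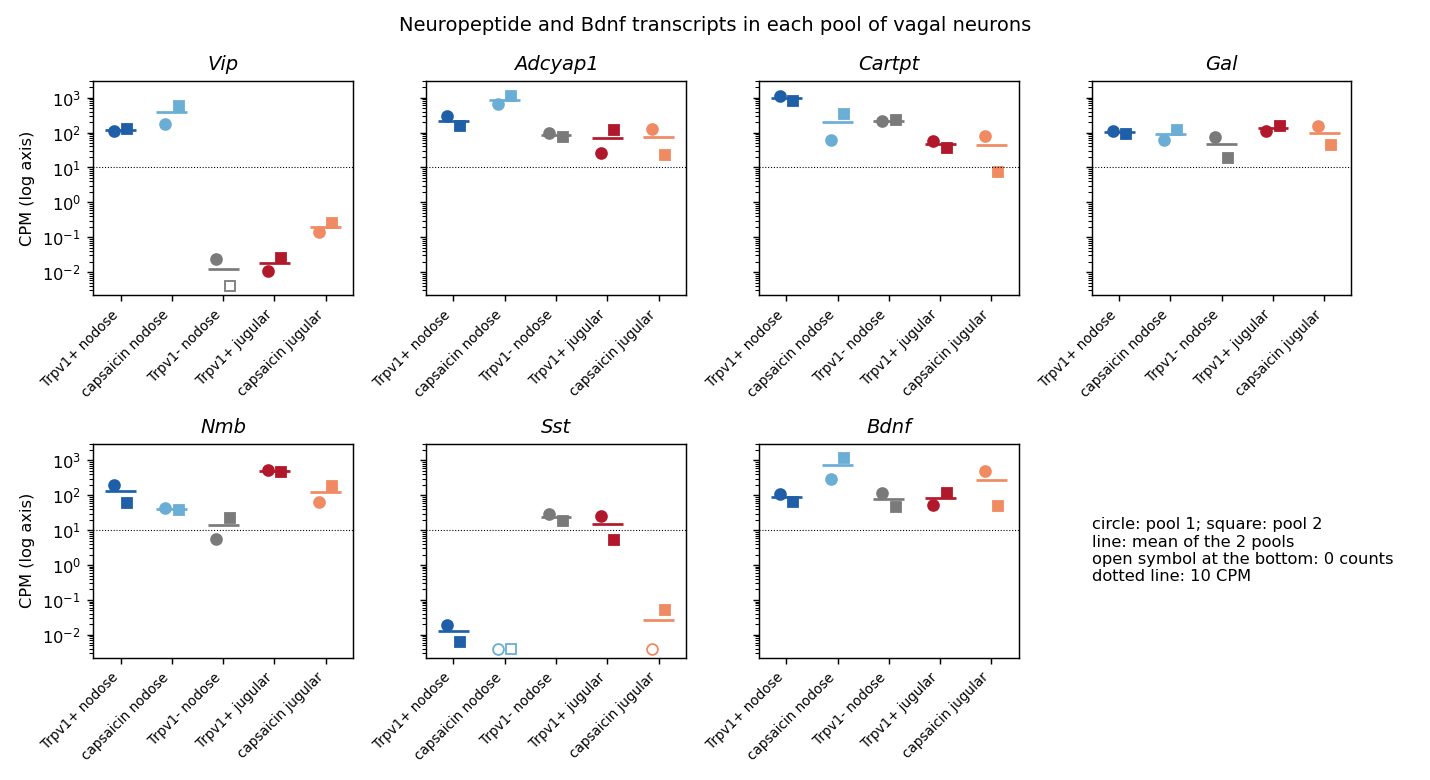
CPM (log axis) of the 7 genes with counts in each of the 10 pools; circles and squares are pools 1 and 2 of a group, lines are means of 2 pools, open symbols at the bottom are pools with 0 counts, and the dotted line is 10 CPM. Vip is above 100 CPM in the 4 selected nodose pools and under 0.3 CPM in the other 6, while Sst is above 5 CPM only in the Trpv1- nodose and Trpv1+ jugular pools.

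Adcyap1 (chromosome 17, 93199017 to 93206537, plus strand) encodes PACAP, a peptide of the same family as VIP that acts through the shared receptors VPAC1 and VPAC2 and through its own receptor PAC1. Unlike Vip it was at 23.4 CPM or more in every pool. It had 291 and 152 CPM in Trpv1+ nodose and 659 and 1085 CPM in capsaicin nodose neurons. The jugular values were 26.2 and 118 CPM (Trpv1+) and 128 and 23.4 CPM (capsaicin). The Trpv1- nodose pools were near the upper jugular values, with 97.7 and 74.9 CPM.

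All 4 selected nodose pools were above all 4 jugular pools for Adcyap1. Vip and Adcyap1 were the only 2 of the 7 members tested whose nodose and jugular pools did not overlap across both selections, where 5.11% of all genes did not overlap. The log2 fold change of Adcyap1 was 1.61 ± 0.85 in the Trpv1 selection (edgeR adjusted p = 0.616) and 3.18 ± 0.98 in the capsaicin selection (0.352). With both selections in a single fit it was 2.46 ± 0.72 (edgeR adjusted p = 0.299, n = 4 and 4), which is not a call, whereas DESeq2, which called 8.76% of genes in that fit, called it (2.60, adjusted p = 0.0452). The jugular pools of each selection differed from each other by 4.49-fold and 5.46-fold.

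Cartpt (chromosome 13, 99898489 to 99901091, minus strand) encodes CART, a peptide known in vagal afferents for its link to satiety. Its highest levels were in the Trpv1+ nodose pools, with 176453 and 130910 counts, or 1125 and 795 CPM. The Trpv1- nodose pools had 210 and 229 CPM and the capsaicin nodose pools 59.5 and 333 CPM. In jugular neurons Cartpt was 56.0 and 36.2 CPM (Trpv1+) and 79.1 and 7.28 CPM (capsaicin).

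Cartpt was called higher in Trpv1+ nodose than in Trpv1+ jugular neurons, with a log2 fold change of 4.37 ± 0.38 (n = 2 and 2, edgeR adjusted p = 0.0440). The ratio of the pooled counts was 20.9 (95% interval 20.6 to 21.2, counting error only). In the fit to all 10 pools at once the edgeR adjusted p rose to 0.407 and the call was lost (0.201% of all genes were called in that fit). In the capsaicin selection the nodose and jugular pools of Cartpt overlapped, and the log2 fold change was 1.76 ± 1.64 (edgeR adjusted p = 0.948). In the fit to both selections it was 3.11 ± 0.92 (edgeR adjusted p = 0.302), and without the first capsaicin jugular pool it was called (4.46, edgeR adjusted p = 0.0293). The difference between the 2 selections in this contrast was 2.66 ± 1.46 on the log2 scale (edgeR interaction, adjusted p = 0.559). Trpv1+ nodose pools were above Trpv1- nodose pools by 2.16 ± 0.27 on the log2 scale, with no overlap and no call (edgeR adjusted p = 0.348). The 2 pools of a group differed in Cartpt by 1.09-fold in Trpv1- nodose and by 10.9-fold in capsaicin jugular neurons.

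Gal and Nmb encode galanin, which acts on receptors that lower neuronal excitability in many tissues, and neuromedin B, a bombesin-like peptide. Gal (chromosome 19, 3409915 to 3414544, minus strand) was detected in all pools, and its nodose and jugular levels overlapped in both selections. It had 112 and 91.6 CPM in Trpv1+ nodose, 109 and 159 CPM in Trpv1+ jugular, 61.0 and 117 CPM in capsaicin nodose, 156 and 42.9 CPM in capsaicin jugular, and 72.3 and 19.1 CPM in Trpv1- nodose neurons. Each group overlapped its neighbour in the order of means, although both Trpv1+ groups were above both Trpv1- nodose pools. Trpv1+ over Trpv1- nodose pools gave a log2 fold change of 1.16 ± 0.89 (edgeR adjusted p = 0.800), not a call. The log2 fold change, nodose over jugular, was -0.41 with a 95% interval of -1.78 to 0.96 in the Trpv1 selection and -0.53 (-3.87 to 2.82) in the capsaicin selection, with edgeR adjusted p-values of 0.918 and 0.9999.

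Nmb (chromosome 7, 80902227 to 80905076, minus strand) was highest in the Trpv1+ jugular pools, at 529 and 469 CPM, with 99163 and 93717 counts. The Trpv1+ nodose pools had 202 and 61.2 CPM, and the capsaicin jugular pools 64.7 and 186 CPM. Levels were 42.8 and 38.2 CPM in capsaicin nodose and 5.6 and 22.1 CPM in Trpv1- nodose neurons.

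The Trpv1+ jugular pools overlapped no other group, and in each selection both jugular pools were above both nodose pools. The log2 fold change, nodose over jugular, was -1.93 ± 0.60 in the Trpv1 selection (edgeR adjusted p = 0.327) and -1.99 ± 1.37 in the capsaicin selection (0.783). The fit to both selections gave -1.91 ± 0.59 (edgeR adjusted p = 0.313), not a call, and DESeq2 called it lower in nodose neurons (adjusted p = 0.0823). Within the nodose ganglion, Nmb was 3.29 ± 1.10 higher on the log2 scale in Trpv1+ than in Trpv1- pools, without overlap and without a call (edgeR adjusted p = 0.378). Nmb shares 188 bases with Sec11a on the same strand, so reads in that stretch could belong to either gene.

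Sst encodes somatostatin, an inhibitory peptide (chromosome 16, 23889573 to 23890958, minus strand). Its counts were high in 2 groups and near the floor in 3. The Trpv1- nodose pools held 6177 and 3657 counts (29.6 and 18.9 CPM) and the Trpv1+ jugular pools 4664 and 1027 counts (24.9 and 5.14 CPM). The Trpv1+ nodose pools held 3 and 1 counts, the capsaicin nodose pools 0 and 0, and the capsaicin jugular pools 0 and 1.

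In the nodose ganglion, Sst and Vip thus had opposite orders in the Trpv1+ and Trpv1- pools, without overlap for either gene. Pooled Sst counts were 1960 times higher in Trpv1- than in Trpv1+ nodose neurons (95% interval 767 to 7210, counting error only), and 1180 times higher in Trpv1+ jugular than in Trpv1+ nodose neurons (461 to 4340). The fitted log2 fold change of Sst, Trpv1+ over Trpv1- nodose, was -10.82 ± 2.70 (edgeR adjusted p = 0.366), and DESeq2 called it (-10.84, adjusted p = 3.62e-08). Between Trpv1+ nodose and Trpv1+ jugular neurons the adjusted p was 0.321 with edgeR, and the second jugular pool was under 10 CPM. No fold is given in the capsaicin selection, where all 4 pools were under the floor of 3 counts. That selection had fewer cells and lower depth, with a highest floor of 0.217 CPM. The cause of the difference in Sst between the selections was not tested.

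Npy, Nppb and Nts, which encode neuropeptide Y, B-type natriuretic peptide and neurotensin, had 0 counts in all 10 pools. Of all genes in the table, 33.5% had 0 counts in all pools. With 1040272146 counts in all, a count of 0 allows a mean level of up to 0.00288 CPM per gene over the pools, and per pool of up to 0.0144 to 0.217 CPM. Npy lies on chromosome 6 (49822710 to 49829507), Nppb on chromosome 4 (147985788 to 147987205) and Nts on chromosome 10 (102481756 to 102490486). Npy is also a peptide of sympathetic neurons. Summed over 6 markers of those neurons, levels were 1231 to 1616 CPM in capsaicin nodose (Th at 827 and 850 CPM) and 43.8 to 170.2 CPM in the other groups. Of these markers, Dbh was at 21.9 and 54.1 CPM in the Trpv1- nodose pools and at 0 to 0.0304 CPM in the other 8.

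Bdnf (chromosome 2, 109674700 to 109727007, plus strand) was expressed in every pool. The Trpv1 selection had 109 and 64.5 CPM in Trpv1+ nodose, 53.2 and 113 CPM in Trpv1+ jugular and 116 and 45.9 CPM in Trpv1- nodose neurons. In the capsaicin selection the nodose pools had 293 and 1141 CPM and the jugular pools 501 and 48.9 CPM. All neighbouring groups overlapped in the order of their means. Replicate pools differed by up to 10.3-fold, in capsaicin jugular.

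For Bdnf the log2 fold change, nodose over jugular, was 0.05 with a 95% interval of -1.86 to 1.97 in the Trpv1 selection (edgeR adjusted p = 0.997) and 0.98 (-2.03 to 3.99) in the capsaicin selection (0.9999). Trpv1+ over Trpv1- nodose pools gave 0.11 (-1.84 to 2.07, edgeR adjusted p = 0.995). Bdnf overlaps an antisense gene, Gm45346, by 1892 bases, and without strand the reads of the 2 genes cannot be told apart there.

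**Figure D2:**
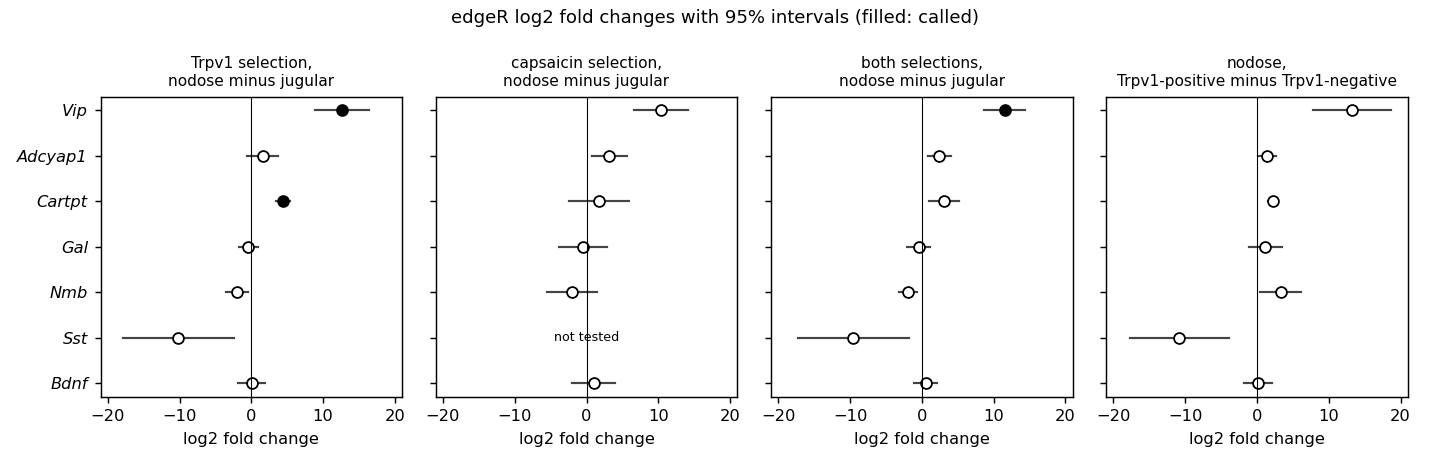
Log2 fold changes of the 7 genes with counts in 4 comparisons, with approximate 95% intervals derived from the edgeR test statistic. Filled circles are calls and open circles are not. Vip lies at 10.37 to 13.18 in all 4 comparisons and Sst at -9.53 to -10.82 in the 3 in which it was tested, while the intervals of Gal and Bdnf cross 0 in each. For Sst the fit to both selections rests on the Trpv1 pools, since each capsaicin pool held 0 or 1 counts.

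Counted over the members, the pools did not overlap for 5 of the 7 tested in the Trpv1 selection, against 42.1% of all genes, for 3 of the 6 tested in the capsaicin selection (42.1%), and for 6 of the 7 tested in Trpv1+ against Trpv1- nodose neurons (40.7%). The median log2 fold change of the members tested was 0.05, 1.37 and 1.38, beside 0.03, -0.02 and 0.01 over all genes. No member passed the edgeR interaction test of ganglion and selection, nor did any of the 11959 genes (1233 with an unadjusted p under 0.05), which is 0% called, while DESeq2 called 2590 genes (19.6%). The call of Sst among them is not used, since the capsaicin pools held too few counts of Sst for a fold. For Vip this interaction was 2.25 ± 1.56 on the log2 scale (edgeR adjusted p = 0.673).

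To compare genes with each other, CPM was divided by the length of all exons of a gene in GENCODE vM21 (CPM per kb). That length joins the exons of all transcripts, 6217 bases for Bdnf and 3777 for Adcyap1 but 793 for Nmb and 788 for Gal. The orders and shares below depend on it. By mean CPM alone, Adcyap1 (222) was above Nmb (132) and Gal (102) in Trpv1+ nodose neurons. By CPM per kb, Cartpt was the highest member in Trpv1+ nodose neurons (881 and 623 CPM per kb), followed by mean by Nmb, Gal, Adcyap1, Vip and Bdnf. Nmb was above Gal in the first pool (255 against 142 CPM per kb) and below it in the second (77.2 against 116). In capsaicin nodose neurons the order by mean was Adcyap1 (174 and 287 CPM per kb), Cartpt, Bdnf, Gal, Vip and Nmb. In the first of these pools Cartpt (46.6 CPM per kb) and Bdnf (47.1) were below Gal (77.4), Nmb (54.0) and Vip (50.4). Cartpt (260 CPM per kb) and Bdnf (184) were above them only in the second, the pool that stood apart. Nmb led in both Trpv1+ jugular pools (667 and 591 CPM per kb), with Gal second. In capsaicin jugular neurons Nmb had the highest mean, but Gal was above it in the first pool (198 against 81.6 CPM per kb) and below it in the second (54.5 against 234 CPM per kb). In Trpv1- nodose neurons Cartpt led (165 and 179 CPM per kb), followed by mean by Gal (91.8 and 24.2 CPM per kb) and Sst (41.0 and 26.2 CPM per kb), although Nmb was second in the second pool (27.8 CPM per kb).

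The 9 neuropeptide members were also set against 57 other precursors in the table, such as those of calcitonin gene-related peptide (Calca, Calcb) and substance P (Tac1). In the summed CPM per kb of these 66 genes, the 9 members held 80.1% and 79.3% in Trpv1- nodose, 66.1% and 46.3% in Trpv1+ nodose and 57.2% and 50.6% in capsaicin nodose neurons. In jugular neurons they held 20.9% and 20.4% (Trpv1+) and 7.60% and 7.83% (capsaicin). In this share every nodose pool was above every jugular pool, but the share also depends on the level of the other precursors. The summed CPM of all 10 members, Bdnf included, did not follow that order. It was 409.5 to 531 in Trpv1- nodose, 1290 to 1950 in Trpv1+ nodose and 1286 to 3296 in capsaicin nodose neurons. In jugular neurons it was 798.5 to 899.8 (Trpv1+) and 308.7 to 929.2 (capsaicin). Cartpt alone held 42.0% and 32.3% in Trpv1+ nodose, 39.9% and 51.2% in Trpv1- nodose, 6.62% and 14.4% in capsaicin nodose and at most 1.25% in any jugular pool. In the jugular pools Calca held 14.2% to 52.7% and Calcb 20.9% to 74.8%. Uts2b, which encodes urotensin 2B, ranked first in 1 and second in 2 of the 4 selected nodose pools (8.33% to 29.1%).

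**Figure D3:**
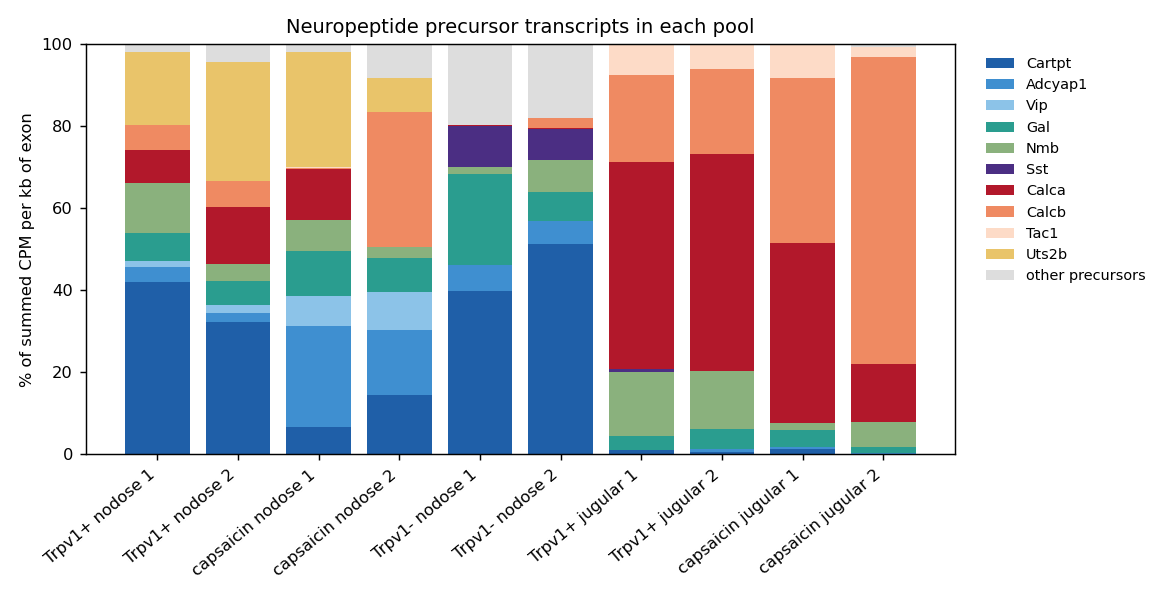
Share of the summed CPM per kb of exon of 66 neuropeptide precursors held by 6 members and 4 other genes in each of the 10 pools, stacked to 100%; grey is the rest of the precursors. The 9 members hold 46.3% to 80.1% in the nodose pools and 7.60% to 20.9% in the jugular pools, where Calca and Calcb hold most of the rest.

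Of the other precursors, 9 were tested in the Trpv1 selection, and edgeR called Uts2b toward nodose neurons and Calca, Calcb and Tac1 toward jugular neurons. Of all genes tested there 0.318% were called. The paper had reported the Tac1 difference in these same libraries. The 4 called precursors set the selected nodose and jugular neurons apart in the Trpv1 selection as Vip and Cartpt did. The log2 fold changes were -3.32 ± 0.26 for Calca (edgeR adjusted p = 0.0361), -2.86 ± 0.21 for Calcb (0.0312) and -10.65 ± 0.95 for Tac1 (0.0453). In the capsaicin selection, where edgeR called no gene, 7 of these precursors were tested and 4 had an unadjusted p under 0.05. In Trpv1+ against Trpv1- nodose neurons, Calca (8.64 ± 0.58, edgeR adjusted p = 0.05) and Uts2b (12.48 ± 0.72, 0.05) were called higher. The Trpv1- nodose pools had 0.0861 and 0.0517 CPM of Uts2b and 0.828 and 1.07 CPM of Calca, whereas Cartpt, Adcyap1 and Gal were each at 19.1 CPM or more there. In the fit to both selections, Uts2b (11.50 ± 1.24) and Tac1 (-10.45 ± 0.81) were called. Calca (-4.17 ± 1.01, edgeR adjusted p = 0.170) and Calcb (-3.16 ± 1.04, 0.337) were not.

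The peptides depend on a common set of processing and vesicle genes. Of 27 such genes, 20 reached 10 CPM in both pools of a group. None of 23 tested was called by edgeR in the Trpv1 selection (5 with an unadjusted p under 0.05, and 1 call by DESeq2, which called 3.79% of all genes), and none of 21 in the capsaicin selection (5 and 2, with 7.39% of all genes called by DESeq2). In the fit to both selections, edgeR called 3 of 25 (2 higher and 1 lower in nodose neurons) and DESeq2 8 of 25 (5 and 3), where 0.577% and 8.76% of all genes were called.

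Scg2, the granule protein secretogranin II, was called higher in the selected nodose neurons than in jugular neurons (967 and 1683 against 122 and 239 CPM in the Trpv1 selection, and 2284 and 1838 against 523 and 309 CPM in the capsaicin selection), with a log2 fold change of 2.48 ± 0.37 (n = 4 and 4, edgeR adjusted p = 0.0173). The Trpv1- nodose pools, which are not in that fit, had 197 and 215 CPM of Scg2, within the range of the Trpv1+ jugular pools. Syt4, a synaptotagmin of dense-core vesicles, was also called higher in the selected nodose neurons (1.77 ± 0.18, edgeR adjusted p = 0.00104). Scg3, secretogranin III, was lower there (-1.63 ± 0.33, edgeR adjusted p = 0.0909). Cpe (carboxypeptidase E), Pcsk1n (proSAAS, an inhibitor of a convertase) and Cadps (a factor of vesicle priming) were the most abundant of the rest and were not called, with log2 fold changes of -0.87, 0.28 and -0.00. Pcsk1n was at 686 to 1206 CPM in every Trpv1+ and Trpv1- pool and at 0 to 56.4 CPM in every capsaicin pool.

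Receptors for the members were sparse. Of 25 receptor genes in the table, 5 reached 10 CPM in both pools of a group and 10 had 0 counts in all pools. The VIP and PACAP receptor gene Vipr1, the galanin receptor genes Galr2 and Galr3, the neuromedin B receptor gene Nmbr and the somatostatin receptor genes Sstr1, Sstr3 and Sstr5 were among those at 0.

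Npy2r, a receptor for neuropeptide Y and peptide YY, was called higher in nodose neurons in the fit to both selections (log2 fold change 12.46 ± 2.52, edgeR adjusted p = 0.0909, the 1 call among 8 receptors tested). It had 19.0 and 3.59 CPM in Trpv1+ nodose and 83.9 and 180 CPM in capsaicin nodose neurons. It was at or under 0.0516 CPM in the other 6 pools, and its peptide Npy was at 0 in all. Ntrk2, which encodes TrkB, was at 93.2 and 174 CPM in Trpv1+ nodose, 168 and 164 CPM in Trpv1- nodose and 346 and 49.8 CPM in capsaicin nodose neurons. Jugular pools had 9.37 and 20.1 CPM (Trpv1+) and 0.0486 and 0.155 CPM (capsaicin) of Ntrk2, so all 6 nodose pools were above all 4 jugular pools (6.78 ± 2.18 in the fit to both selections, edgeR adjusted p = 0.333, no call). Ngfr, the low-affinity neurotrophin receptor p75, and Npr2, a natriuretic peptide receptor, varied between replicates (528 and 1.45 CPM, and 2.43 and 202 CPM, in capsaicin nodose) and were not called. Galr1, chosen here after its values were seen, had 4.84 and 12.7 CPM in Trpv1+ jugular and 0 and 13.7 CPM in capsaicin jugular pools, against 0 to 0.00517 CPM in the nodose pools.

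**Figure D4:**
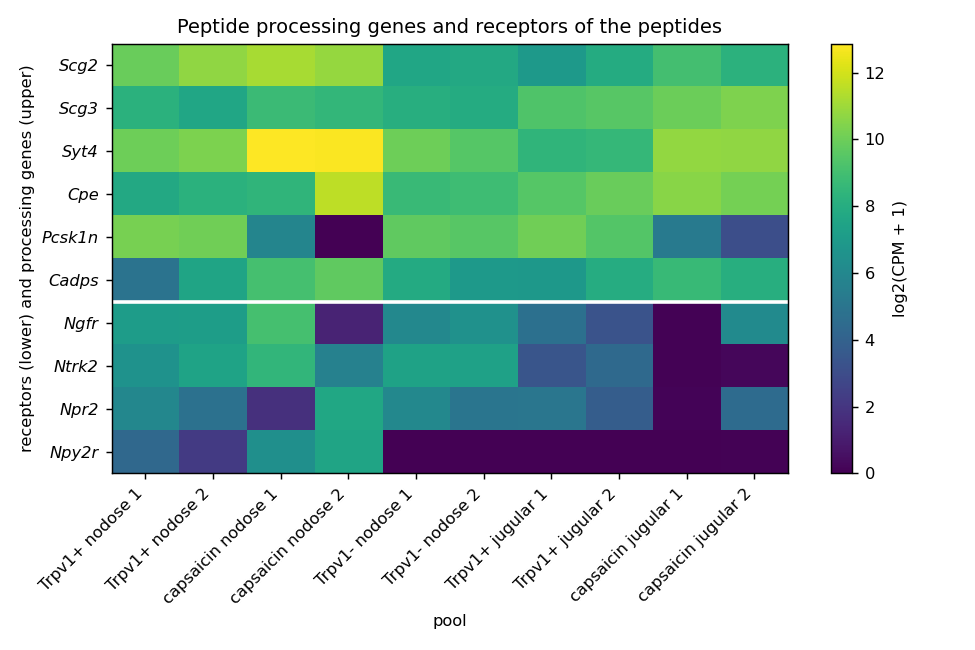
log2(CPM + 1) of 6 peptide processing genes (upper) and 4 receptors of the peptides or of BDNF (lower) in each of the 10 pools; a lighter colour is a higher level. Scg2 and Syt4 are lighter in the selected nodose pools than in the jugular pools of the same selection, and Npy2r is above 3 CPM only in the 4 selected nodose pools.

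For each detected member, the 3 genes with the most similar profile across the 10 pools were listed by Pearson's r of log2(CPM + 1), among 7841 genes with at least 10 CPM in both pools of a group. The pools of a selection share a sequencing core and a range of depth, and r is a description. For Vip these were Col6a5 (r = 0.994), Efcab6 (0.965) and Uts2b (0.964). For Sst they were Pcx (0.988), Yae1d1 (0.970) and Lrrc73 (0.964). For Adcyap1 they were Sat1 (0.958), Slc25a5 (0.926) and Pttg1ip (0.926). The serotonin receptor gene Htr3a (0.916) stood with Crip1 (0.925) and Arpc3 (0.905) beside Cartpt. For Nmb they were Fxyd2 (0.940), Filip1 (0.881) and St6galnac5 (0.880), and for Bdnf 9530062K07Rik (0.930), Mdh2 (0.929) and Gpr160 (0.929). The closest genes of Gal had the lowest values, with Akr1a1 at 0.870, 2310009A05Rik at 0.869 and Anapc10 at 0.865. Among the members themselves, Vip and Adcyap1 had an r of 0.832.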

How the data were processed

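RNA of pools of hand-picked mouse vagal neurons was amplified from poly(A) with an ultra-low input kit by 15 PCR cycles and sequenced. The authors aligned reads to mm10 with TopHat2 2.0.9 and Bowtie2 2.1.0.0 and counted them with HTSeq. The deposited values are raw counts per gene symbol, and the annotation and strand setting are not given in the sources used here. A library from few cells with many PCR cycles gives noisy counts, and genes carried by few cells vary between pools.

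Counts of the 10 pools were joined by symbol. CPM used DESeq2 1.42.0 size factors over all 10 pools. Tests used edgeR 4.0.16 (R 4.3.3; filterByExpr, TMM, quasi-likelihood) on the pools of each comparison, with genes called at adjusted p of at most 0.1, fold of at least 2 and at least 10 CPM in both pools of a group. Nothing states that replicates are separate animals, so p-values measure the spread between pools. Alternatives were DESeq2, its size factors in edgeR, no filter, a single fit to all 10 pools, a replicate block, other CPM filters and leaving out each pool. Scripts were tested on simulated data. The members, gene lists and tests were chosen with earlier results of these data known. The text names all members, from each list the called genes and up to 3 more of the highest level, and the 3 most similar genes per member; of the marker lists only those beside a result are named. A result on 1 marker list is not reported here.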

Additional observations from a re-analysis of the deposited data

How the results depend on the processing

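The pools of a group carry the numbers 1 and 2 in the labels. The deviations of pools with the same number correlated with r of 0.00348, -0.0266 and -0.016. With noisy pools of few cells this cannot exclude a shared mouse or batch, and the main tests did not pair pools by number. With a replicate block the genes called were 13 (Trpv1 selection), 20 (capsaicin selection), 1 (Trpv1+ against Trpv1- nodose) and 41 (both selections), beside 35, 0, 6 and 69 without it, and 1 member, Cartpt, was called in the Trpv1 selection (Vip adjusted p = 0.330). DESeq2 called 506 (203 toward nodose), 800 (109 toward nodose), 372 and 1212 (378 toward nodose) genes, and 2590 for the interaction, and of the members 1 in the capsaicin selection, 2 in Trpv1+ against Trpv1- nodose, 4 in both selections and 1 for the interaction. Without a filter on low counts 59, 122, 10 and 222 genes were called, 102 for the interaction, and 1 member in the capsaicin selection and 3 in both selections (Vip, Adcyap1 and Cartpt). A single fit to all 10 pools called 111 genes in the capsaicin selection, 213 in both selections and 7 for the interaction. It called 1 member in the Trpv1 selection (Vip), 1 in the capsaicin selection (Vip) and 2 in both selections (Vip and Cartpt). Leaving out a pool gave 0 to 0 genes and 0 to 0 members in the Trpv1 selection, 0 to 29 genes and 0 to 1 member in the capsaicin selection (with a lone pool assumed to vary like the other group), 0 to 0 genes in Trpv1+ against Trpv1- nodose, 38 to 89 genes and 1 to 2 members in both selections, and 0 to 195 genes for the interaction. In the capsaicin selection 29 genes were called without nodose pool 1, 26 without jugular pool 1 and 18 without jugular pool 2, and in both selections 44 and 38 were called without capsaicin jugular pools 1 and 2. The cause of these shifts was not tested.

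Directions of Vip, Adcyap1, Cartpt and Nmb held under every alternative run in the 4 comparisons, and that of Sst in the 3 in which it was tested. For Sst the fit to both selections rests on the Trpv1 pools and is not independent of the Trpv1 selection. Small differences changed sign when a pool was left out. For Bdnf the log2 fold change ranged from -0.41 to 0.69 in the Trpv1 selection, from -0.053 to 3.41 in the capsaicin selection and from -0.43 to 0.98 in Trpv1+ against Trpv1- nodose, and for Gal from -1.15 to 0.63 in the capsaicin selection and from -0.67 to 0.10 in both selections. For the interaction, Gal was -0.23 with DESeq2 and with its size factors in edgeR, -0.11 in the fit to all pools and -0.023 with the replicate block, and Nmb was -0.29, -0.29, -0.22 and -0.32. Without a pool, the interaction ranged from -1.35 to 0.81 for Gal, from -1.04 to 0.74 for Nmb, from -3.68 to 0.21 for Bdnf and from -0.22 to 4.11 for Cartpt. CPM from plain totals moved 6 of 34 group means by more than their SD: Nmb to 580 CPM in Trpv1+ jugular and 27.0 CPM in capsaicin nodose, Adcyap1 to 528 CPM in capsaicin nodose and 113 CPM in Trpv1- nodose, and Cartpt and Sst to 288 and 31.8 CPM in Trpv1- nodose. In capsaicin nodose, where the pools differed widely, 4 more means fell by over 1.5 times, Vip from 377 to 204 CPM, Bdnf from 717 to 382 CPM, Cartpt from 196 to 100.2 CPM and Gal from 89.1 to 52.6 CPM. Depth limits the capsaicin selection most, since its floor is 0.146 to 0.217 CPM.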

Other observations

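Among 11 other neurotrophic factors, 2 reached 10 CPM in both pools of a group and none was called in any of the 4 comparisons by edgeR (1 of 5 tested had an unadjusted p under 0.05 in the Trpv1 selection, and none in the other 3) or by DESeq2. Ptn, which encodes the growth factor pleiotrophin, had 22.1 and 31.2 CPM in Trpv1+ jugular, 101 and 26.2 CPM in capsaicin jugular and 21.6 and 37.2 CPM in Trpv1- nodose neurons. It had 0.453 and 5.44 CPM in Trpv1+ nodose neurons, and 0.103 and 851 CPM in the capsaicin nodose pools, so a single pool held nearly all of that group's counts. Mdk, the related factor midkine, was at 10.9 and 27.9 CPM in Trpv1+ jugular neurons, and at 17.1, 9.55 and 10.9 CPM in 1 pool each of Trpv1+ nodose, capsaicin nodose and capsaicin jugular neurons. Nrtn, which encodes neurturin, was at 19.9 CPM in 1 Trpv1+ nodose pool and 18.5 CPM in 1 Trpv1- nodose pool, with the other pool of each group at 0 and 0.0155 CPM.

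Of the precursors outside the members, Penk, the enkephalin precursor, had 50.2 and 26.7 CPM in the Trpv1- nodose pools. It was at 32.9 CPM in 1 capsaicin jugular pool and at or under 0.0191 CPM in the other 7. Agrp, the agouti-related peptide gene, had 12.9 and 77.6 CPM in Trpv1+ nodose neurons and 22.4 and 4.85 CPM in Trpv1- nodose neurons, and was at or under 0.0107 CPM in the jugular pools. Nucb2, the nesfatin precursor, ranged from 0 to 105 CPM within the capsaicin nodose group.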
